A study of Homo sapiens with 8 samples.

Results

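The genes described here are the 5 members of the plasminogen activation system PLAU, PLAT, PLAUR, SERPINE2 and SERPINB2, chosen by gene symbol from the 27696 genes of the count table. RNA was sequenced from IMR90 cells, a line of normal human embryo lung fibroblasts, after 3 days in medium taken from IMR90 ER:RAS cells. ER:RAS cells carry an inducible form of the RAS oncogene that 4-hydroxytamoxifen (4-OHT) switches on, and they become senescent over the days that follow. The groups D0, D4, D7 and D10 are named by the day of 4-OHT on which the medium was collected, and each has 2 libraries, replicates 1 and 2, from 2 independent experiments. All 4 groups, D0 included, received medium from ER:RAS cells, no library comes from cells without such medium, and every library comes from 1 line, so the 2 experiments are not 2 donors. The libraries are of whole cultures, in which fewer cells expressing a gene and less RNA per cell cannot be told apart.

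Plasminogen is an inactive precursor that urokinase, made from PLAU, and tissue plasminogen activator, made from PLAT, cut into plasmin, a protease that dissolves fibrin and attacks the extracellular matrix. Urokinase is secreted as a proenzyme and is held at the cell surface by its receptor, the product of PLAUR. Protease nexin 1, made from SERPINE2, and plasminogen activator inhibitor 2, made from SERPINB2, belong to the serpins, which trap a protease in an irreversible complex.

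Over the medium days both activators rose, the receptor was higher at D10 by a smaller fold that passed the test in some fits and not in others, SERPINE2 did not pass the test on any day, and SERPINB2 was near the limit of detection in 7 of the 8 libraries. At D10 the fitted levels of PLAT and PLAU were 10.1-fold and 4.90-fold those at D0. These 2 rises also passed the test in some fits and not in others. Together the activators took 0.205% and 0.200% of the 2 D0 libraries and 1.32% and 1.73% of the 2 D10 libraries.

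The libraries held 11708193 to 13395912 counted reads. All 9 fibroblast markers examined were over 1 CPM in every group, where CPM are the reads of a gene in each library scaled to a common library size. The second D10 library stood apart in most of these markers, with 1295 CPM of the collagen gene COL1A1 beside 9432 in the first. COL1A1, COL1A2, COL3A1, PDGFRB, THY1, VIM and DCN each had their lowest value of all libraries in the second D10 library. The summed fibroblast markers were 10060 CPM in it and 30284 to 46796 in the other 7 libraries. LUM and PDGFRA were not at their lowest there. LUM was at 257.6 CPM beside 166.8 in the first D10 library. PDGFRA was at 427 CPM beside 542 in the first, and of the other libraries only the first D4 library, at 396, was below it. The 4 leukocyte markers that were read, the panleukocyte marker PTPRC among them, summed to 1.31 to 3.60 CPM over all libraries, and of 5 endothelial markers 3 stayed under 1 CPM in every library and VWF reached 2.37 CPM. The endothelial sum was 42.5 to 121.8 CPM, nearly all of it TEK. Epithelial markers summed to 19.1 to 31.1 CPM, which was nearly all KRT8, a keratin. Smooth muscle markers summed to 79.0 to 166.6 CPM, nearly all SMTN.

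**Figure D1:**
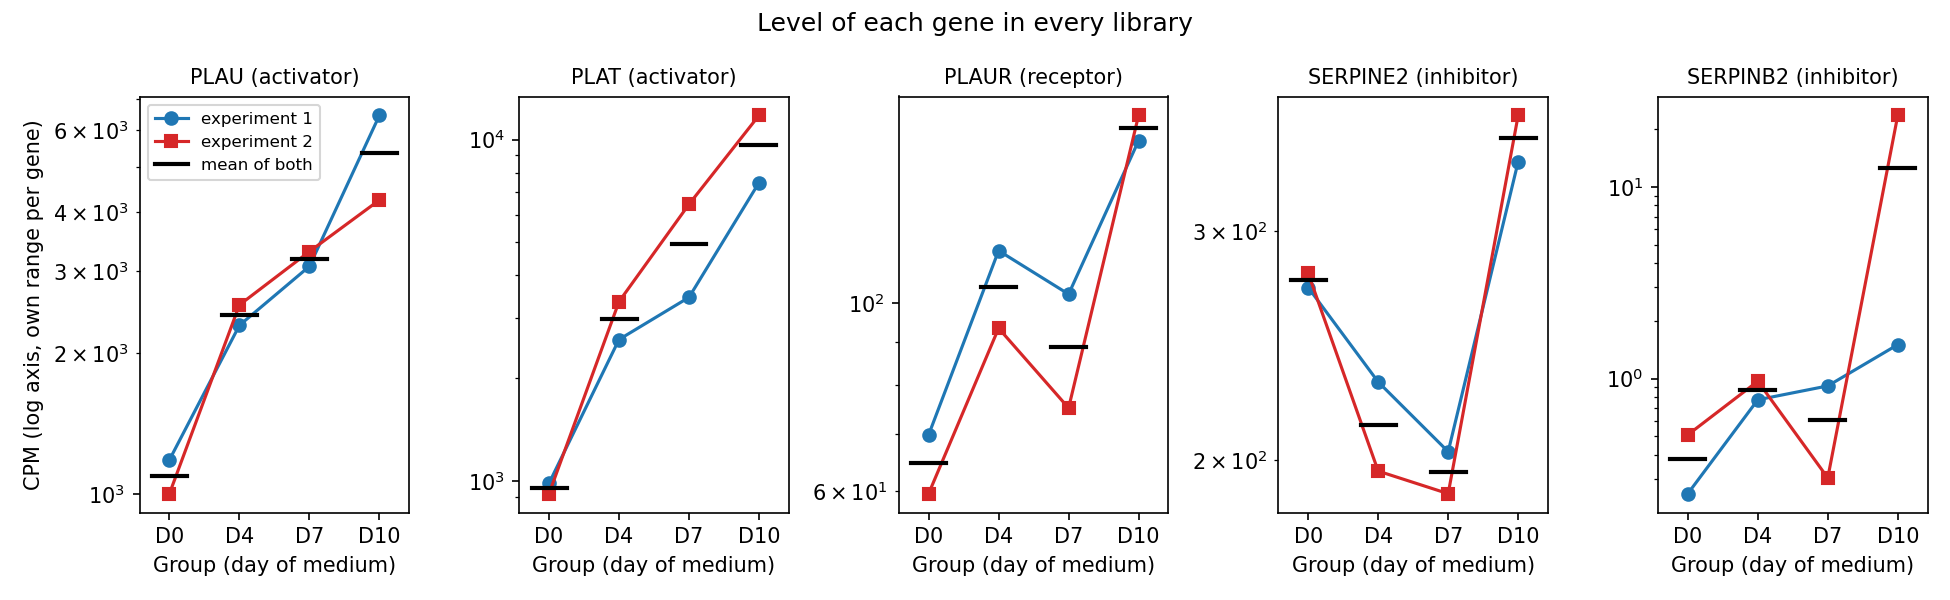
Level of each gene in every library, in CPM on a log axis whose range differs between genes. Points joined by lines are the 4 groups of experiment 1 (circles) and of experiment 2 (squares), and black bars are the means of both. PLAU and PLAT climb at every step in both experiments, PLAUR and SERPINE2 are highest at D10, and SERPINB2 is high in 1 library only, at 23.6 CPM.

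PLAU lies on chromosome 10 at 73909177 to 73917497 on the plus strand (GRCh38, GENCODE 29). In the first and second D0 library it stood at 1182 and 1000.3 CPM. D4 cells had 2292 and 2534, D7 cells 3066 and 3297, and D10 cells 6447 and 4249, after scaling of the libraries with TMM. No group overlapped the one before it, and the replicates lay close together up to D7 and 1.52-fold apart at D10. The log2 fold change from D0 was 1.15 at D4 (SE 0.32), 1.54 at D7 (SE 0.33) and 2.29 at D10 (SE 0.33). The rise at D10 passed the quasi-likelihood test of edgeR, with p-values adjusted by Benjamini-Hochberg over the 13798 genes tested (adjusted p = 0.048), and those at D4 and D7 did not (adjusted p = 1.0 and 0.31). With the experiment as a block, edgeR's adjusted p was 0.134 at D4, 0.03 at D7 and 0.00262 at D10. Within experiment 1 the D10 level was 5.46-fold that at D0, and within experiment 2 it was 4.25-fold.

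PLAT, on chromosome 8 at 42175233 to 42207724 on the minus strand, began at a similar count and rose further. Its level was 985 and 918 CPM in D0 cells, 2597 and 3353 in D4 cells, 3451 and 6463 in D7 cells, and 7478 and 11766 in D10 cells. The groups again did not overlap, although the replicates were 1.87-fold apart at D7. The log2 fold change from D0 was 1.64 at D4 (SE 0.42), 2.38 at D7 (SE 0.43) and 3.34 at D10 (SE 0.45). Only the rise at D10 passed edgeR's test (adjusted p = 0.893, 0.292 and 0.0402), while with the experiment as a block D7 and D10 passed (adjusted p = 0.0135 and 0.000958) and D4 did not (adjusted p = 0.0722). The 2 experiments gave rises of 7.59-fold and 12.8-fold. By read count PLAT ranked 127th and 111th of all genes in the D0 libraries and 5th and 2nd in the D10 libraries, and PLAU went from 96th and 98th to 8th and 7th.

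Of the activators, PLAT had the larger fold in both experiments on every day. The log2 ratio of PLAT to PLAU, which does not depend on how libraries are scaled, was -0.26 and -0.12 at D0 and 0.21 and 1.47 at D10. It rose by 0.48 in experiment 1 and by 1.59 in experiment 2, a mean of 1.03, with the groups apart. The exact two-sided permutation p was 0.333, which is the smallest that 2 libraries against 2 can give. As a share of the reads of both genes, PLAT made up 45.5% and 47.9% at D0 and 53.7% and 73.5% at D10. Per kilobase of exon, PLAU stayed the higher in the first D10 library, at 2185 CPM per kilobase beside 1130 for PLAT, and PLAT was the higher in the second, at 1778 beside 1440.4. With the longest principal transcript as the length instead, the first D10 library held 2778 CPM per kilobase of PLAU and 2763 of PLAT, so the gap between them in that library depends on the length taken while PLAU is the higher with both.

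PLAUR, on chromosome 19 at 43646095 to 43670547 on the minus strand, had a lower level than either activator in every library, at 13.4 to 37.4 CPM per kilobase of exon beside 138.8 or more. D0 cells held 69.9 and 59.5 CPM, D4 cells 115.4 and 93.4, D7 cells 102.5 and 75.2, and D10 cells 155.7 and 166.8. D10 was above every other library and D0 below every other, while D4 and D7 overlapped. The log2 fold change from D0 was 0.69 at D4 (SE 0.24), 0.46 at D7 (SE 0.24) and 1.32 at D10 (SE 0.24). At D10 edgeR's adjusted p was 0.0779 without and 0.00333 with the experiment as a block. The receptor did not pass at D4 or D7 in either fit (adjusted p = 1.0 on both days, and 0.167 and 0.336 with the block).

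SERPINE2, on chromosome 2 at 223975112 to 224039319 on the minus strand, was the more abundant inhibitor per kilobase of exon, with values below D0 at D4 and D7 and above it at D10. Its levels were 271.3 and 278.2 CPM with D0 medium, 229.5 and 196.0 with D4 medium, 202.9 and 188.3 with D7 medium, and 339.1 and 368.0 with D10 medium. The D0 libraries lay between the lower D4 and D7 libraries, which overlapped each other, and the higher D10 libraries. The log2 fold change from D0 was -0.37 at D4 (SE 0.21), -0.49 at D7 (SE 0.21) and 0.36 at D10 (SE 0.21). None of the 3 passed edgeR's test (adjusted p = 1.0, 1.0 and 0.873) or the fit with the block (0.589, 0.263 and 0.261). From D7 to D10 the log2 difference was 0.85 (SE 0.22), with an adjusted p of 0.838, and of 0.0818 with the block. Both experiments had the same order of signs, at 0.748-fold and 0.677-fold of D0 for D7 and 1.25-fold and 1.32-fold for D10.

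SERPINB2, on chromosome 18 at 63871692 to 63903890 on the plus strand, gave 3 and 7 reads in the D0 libraries, 10 and 13 in those of D4, 12 and 4 in those of D7, and 19 and 299 in those of D10. In CPM that is 0.25 and 0.51 for D0, 0.78 and 0.97 for D4, 0.92 and 0.30 for D7, and 1.504 and 23.6 for D10. A single library, the second of D10, was far above the rest, and it is the library with low COL1A1. D7 overlapped D0. The ratio of D10 to D0 was 5.98-fold in experiment 1 (95% interval 1.76 to 31.6, exact, counting error only) and 46.3-fold in experiment 2 (22.2 to 116). The log2 fold change at D10 was 4.99 (SE 1.26), with an edgeR adjusted p of 0.18, and of 0.0437 with the experiment as a block. Without the second D10 library it was 1.94 (adjusted p = 0.813), and with the block 1.86 (adjusted p = 0.197). The call with the block was also lost without the first or the second D0 library (adjusted p = 0.0983 and 0.492) and without the first or the second D4 library (0.0667 and 0.0699). Whether the state of that culture plays a part in the SERPINB2 value was not tested.

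Counted over the 5 genes, 2 were called at D10, both higher, where 0.29% of the 13798 tested genes were called in either direction and 0.196% as higher, and 4 had an unadjusted p under 0.05, a mark reached by 7.94%. The called genes were the activators. With the experiment as a block 4 of 5 were called (PLAT, PLAU, PLAUR and SERPINB2), where 4.99% of all genes were. DESeq2 called the same 4, where 2.59% of its genes were called. At D7 edgeR called 0 of 5 (0.0% of all genes, with 2 of 5 at an unadjusted p under 0.05, a mark reached by 4.34%), the block called 2 (1.25%) and DESeq2 2 (0.823%), in each case PLAT and PLAU. At D4 edgeR called 0 of 5 (0.0%, with 3 at an unadjusted p under 0.05, reached by 2.96%), the block 0 (0.275%) and DESeq2 2 (0.348%), again PLAT and PLAU. The 3 comparisons share the D0 libraries.

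**Figure D2:**
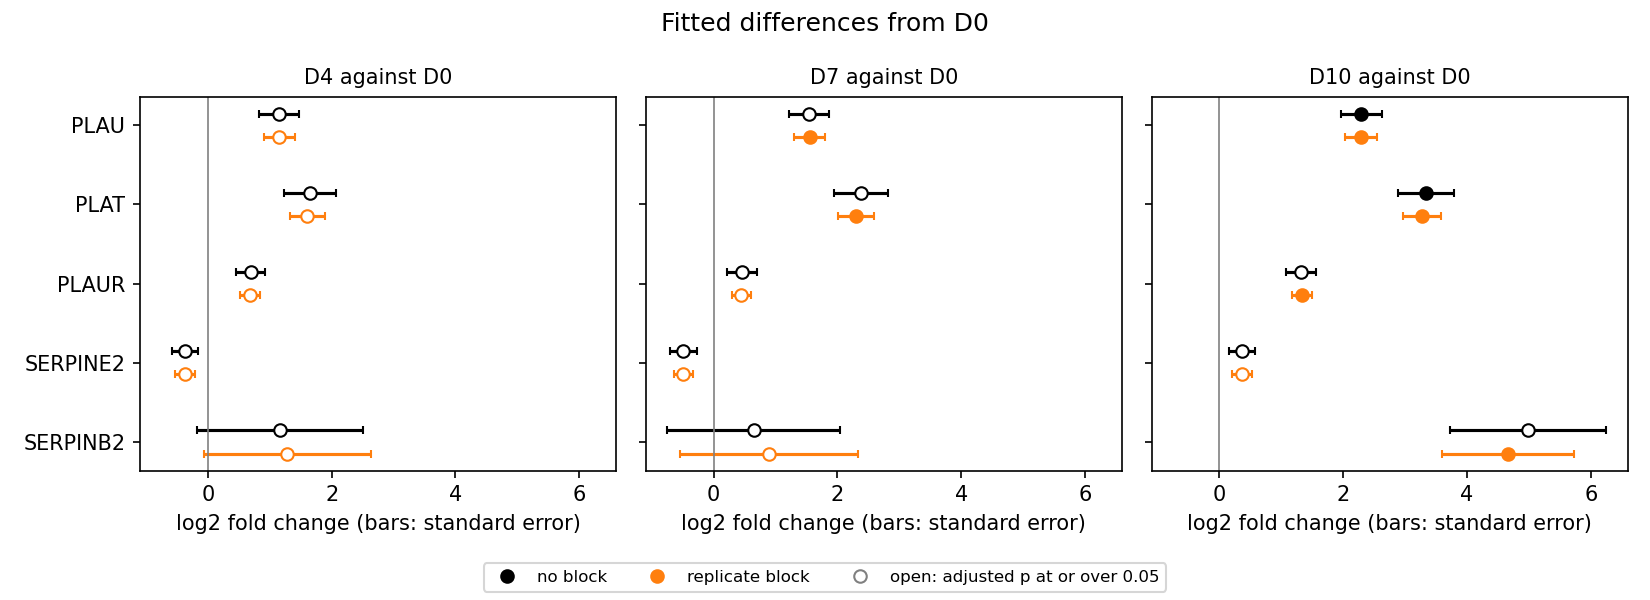
Fitted log2 fold change from D0 at D4, D7 and D10, with bars of 1 standard error, without a block (black) and with the experiment as a block (orange). Filled points have an adjusted p under 0.05. At D10 PLAT (3.34) and PLAU (2.29) are filled in both fits, PLAUR and SERPINB2 only with the block, and SERPINE2 in neither.

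The calls of the activators at D10 were close to the threshold and depended on the libraries in the fit. Leaving out either D0, either D4 or either D7 library left 0 of the 5 genes called at D10 and leaving out the second D10 library left 1, PLAU, while leaving out the first D10 library left 3, these 2 and SERPINB2. The log2 fold change at D10 stayed between 1.98 and 2.56 for PLAU, and between 2.93 and 3.67 for PLAT, when any library was left out with or without the block. With the block and without the second D0 library, edgeR's adjusted p at D10 was 0.0566 for PLAU, 0.0708 for PLAUR and 0.0217 for PLAT.

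Step by step, the largest fitted difference of each activator was that between D0 and D4, while for PLAUR, SERPINE2 and SERPINB2 it was that between D7 and D10. Within experiment 1 the order was the other way for PLAU, with log2 folds of 0.96 for D4 over D0 and 1.07 for D10 over D7. The same held there for PLAUR, with 0.72 and 0.60, and for SERPINB2, with 1.63 and 0.71 from 3 to 19 reads. All 5 genes were higher at D10 than at D7 at an unadjusted p under 0.05, a mark reached by 3.54% of tested genes in either direction and 2.33% as higher, and 0 of 5 passed after adjustment in edgeR (0.0% of all genes) or with the block (0.319%). DESeq2 called 1, SERPINB2 (0.462%). The log2 differences were 0.75 for PLAU, 0.96 for PLAT, 0.86 for PLAUR, 0.85 for SERPINE2 and 4.34 for SERPINB2. Between D4 and D7, 0 of 5 were called in edgeR (0.0%), in the block (0.0%) or in DESeq2 (0.00361%), with 0 of 5 at an unadjusted p under 0.05 in edgeR, a mark reached by 0.42%.

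Fitted as a line along the day of the medium, PLAT rose by 0.33 per day on the log2 scale (SE 0.04, edgeR adjusted p = 0.00528) and PLAU by 0.22 (SE 0.03, adjusted p = 0.00735). These 2 were the called genes of the 5, where 1.18% of all genes were called, and 4 were called with the block (4.3%) and by DESeq2 (3.19%). For PLAUR the slope was 0.11 per day (adjusted p = 0.082, with the block 0.0263) and for SERPINB2 0.53 (0.0896, with the block 0.0424). SERPINE2 had a slope of 0.03 (adjusted p = 0.935).

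The activators were then set against the inhibitors within each library. PLAU over SERPINE2 was 4.35 and 3.59 as a ratio of CPM for D0, 9.98 and 12.9 for D4, 15.1 and 17.5 for D7, and 19.0 and 11.5 for D10. PLAT over SERPINE2 was 3.63 and 3.30 for D0, 11.3 and 17.1 for D4, 16.998 and 34.3 for D7, and 22.0 and 32.0 for D10. Both ratios were above D0 in every later library, and in experiment 2 neither was higher at D10 than at D7.

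From D0 to D10 the log2 ratio of PLAU to SERPINE2 rose by 1.90, with 2.13 in experiment 1 and 1.68 in experiment 2 (exact permutation p = 0.333). That of PLAT to SERPINE2 rose by 2.94, with 2.60 and 3.28 (exact permutation p = 0.333). Both p-values are the smallest that a permutation of 2 libraries against 2 can give, so this test cannot reach 0.05. Against SERPINB2 the 2 experiments went opposite ways for PLAT, and for PLAU only with the prior count. With it, the log2 ratio of PLAU to SERPINB2 moved by 0.42 in experiment 1 and by -3.07 in experiment 2 (mean -1.33, exact permutation p = 1.0). That of PLAT to SERPINB2 moved by 0.89 and -1.48 (mean -0.29, exact permutation p = 1.0). Without a prior count, experiment 1 had a 5.46-fold rise of PLAU and a 5.98-fold rise of SERPINB2, the latter from 3 to 19 reads. The ratio of PLAU to SERPINB2 then fell in both experiments. Even in the second D10 library, and with the prior count, PLAU had 179.0 times the CPM of SERPINB2 and PLAT 496 times.

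**Figure D3:**
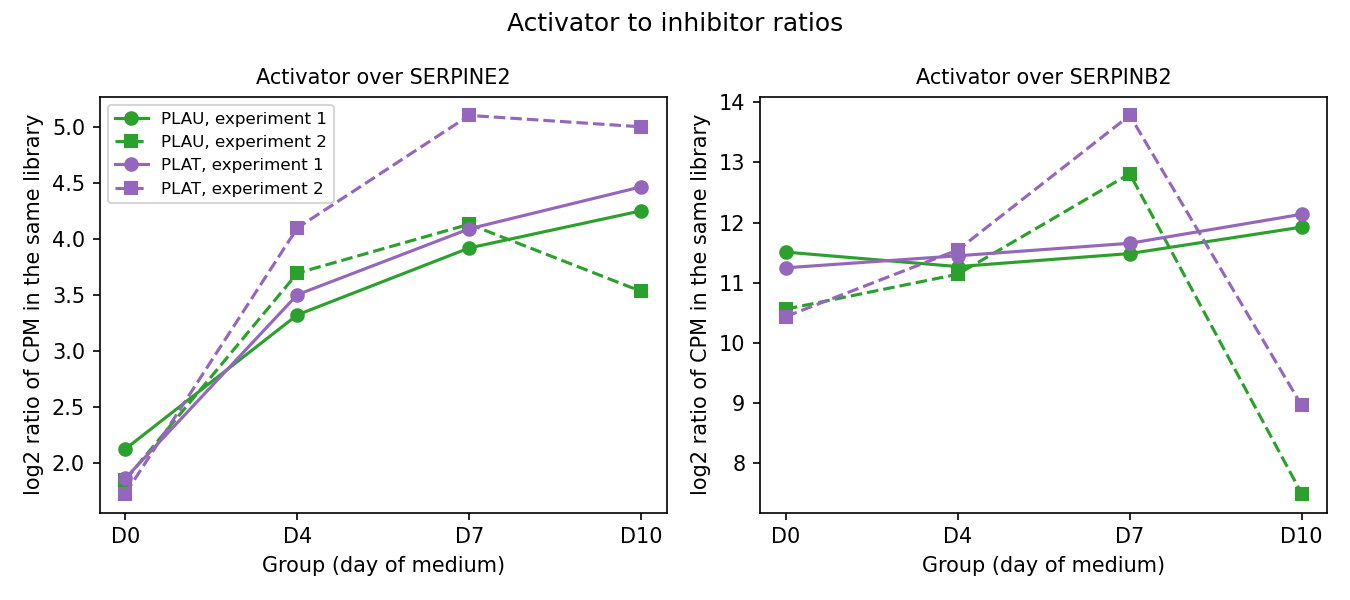
Log2 ratio of the CPM of each activator to that of SERPINE2 (left) or SERPINB2 (right) in the same library, by group, with a prior count of 2. PLAU is in green and PLAT in purple, with experiment 1 as circles on full lines and experiment 2 as squares on dashed lines. The left panel rises from D0 in both experiments, and the lowest points of the right panel are those of the second D10 library, at 7.48 for PLAU.

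Summed per kilobase of exon, the activators were 17.95 and 15.2 times the inhibitors with D0 medium, 44.8 and 61.0 times with D4 medium, 67.4 and 98.3 times with D7 medium, and 85.7 and 64.4 times with D10 medium. The ratio grew 4.77-fold in experiment 1 and 4.24-fold in experiment 2 from D0 to D10, and in experiment 2 it was highest at D7. These multiples depend on the length taken. With the longest principal transcript as the length, they were 7.06 and 6.07 at D0 and 35.7 and 34.6 at D10. The growth was then 5.06-fold in experiment 1 and 5.70-fold in experiment 2. At D10 SERPINE2 stood at 38.1 and 41.4 CPM per kilobase of exon, beside 0.55 and 8.58 for SERPINB2. Other inhibitors of these activators are not members and did not enter the ratios, which are therefore of transcripts of the named genes and not of the capacity of the cells to make plasmin.

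A list of 29 further genes held plasminogen itself, other proteases, receptors, clearance receptors, inhibitors and substrates, of which 1 was not analysed here and 20 passed the filter on low counts. At D10 edgeR called 0 of the 20, where 0.29% of all tested genes were called, with 2 at an unadjusted p under 0.05, both negative (CLEC3B and VTN, the latter named after its values were seen), a mark reached by 7.94% of all. DESeq2 also called 0 (2.59% of all), and the block called 2, both lower (4.99% of all). The median log2 fold change of the 20 was 0.07, beside 0.0037 over all tested genes, with 12 positive and 8 negative.

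The 2 genes lower with the block act in binding plasminogen. S100A10, a subunit of the annexin A2 complex that holds plasminogen at the cell surface, stood at 438 and 297 CPM at D0 and at 275 and 127 at D10. The groups were apart, but the higher D10 library came close to the lower D0 library, and the log2 fold change was -0.87 (SE 0.47, edgeR adjusted p = 0.814, with the block 0.0189). CLEC3B, or tetranectin, which binds the kringle 4 domain of plasminogen, stood at 2.93 and 1.97 CPM at D0 and at 0.63 and 0.16 at D10, a log2 fold change of -2.60 (SE 0.67, adjusted p = 0.194, with the block 0.0138). ANXA2, the partner of S100A10, had a log2 fold change of -0.77 (SE 0.53, adjusted p = 0.962, with the block 0.083) and is named after its values were seen.

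The 4 genes of the list with the highest mean log2 CPM did not pass in either fit. FN1, the matrix protein fibronectin, was at 11252 and 13113 CPM at D0 and 13763 and 11155 at D10. LRP1, a receptor that clears complexes of activators with serpins, was at 2187 and 1859 CPM at D0 and 2376 and 1594 at D10. For CTSB, the protease cathepsin B, which can activate pro-urokinase, the log2 fold change was 0.35 (SE 0.30). ENO1, a glycolytic enzyme that also binds plasminogen at the cell surface, had one of -0.23 (SE 0.47). PLG, the gene of plasminogen, was at 0 to 0.37 CPM in the 8 libraries and did not pass the filter.

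A further 19 serpin genes were listed, of which 7 were not analysed here and 10 passed the filter. At D10 edgeR called 0 of the 10 (0.29% of all tested genes) and DESeq2 0 (2.59%), with 2 positive ones in both at an unadjusted p under 0.05 (SERPINB8 and SERPIND1, named after their values were seen), which 7.94% of all genes had in edgeR, and the block called 1, SERPINH1 (4.99%). The median log2 fold change was -0.18. SERPINH1, a chaperone for collagen that does not inhibit proteases, was at 1035 and 621 CPM at D0 and 617 and 358 at D10, with a log2 fold change of -0.76 (SE 0.41, edgeR adjusted p = 0.807, with the block 0.0358). The next by mean log2 CPM did not pass in either fit, with log2 fold changes of -0.20 for SERPINB6, an inhibitor inside cells, -0.16 for SERPINF1, which does not inhibit proteases, and -0.0024 for SERPINB1, an inhibitor of neutrophil proteases.

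**Figure D4:**
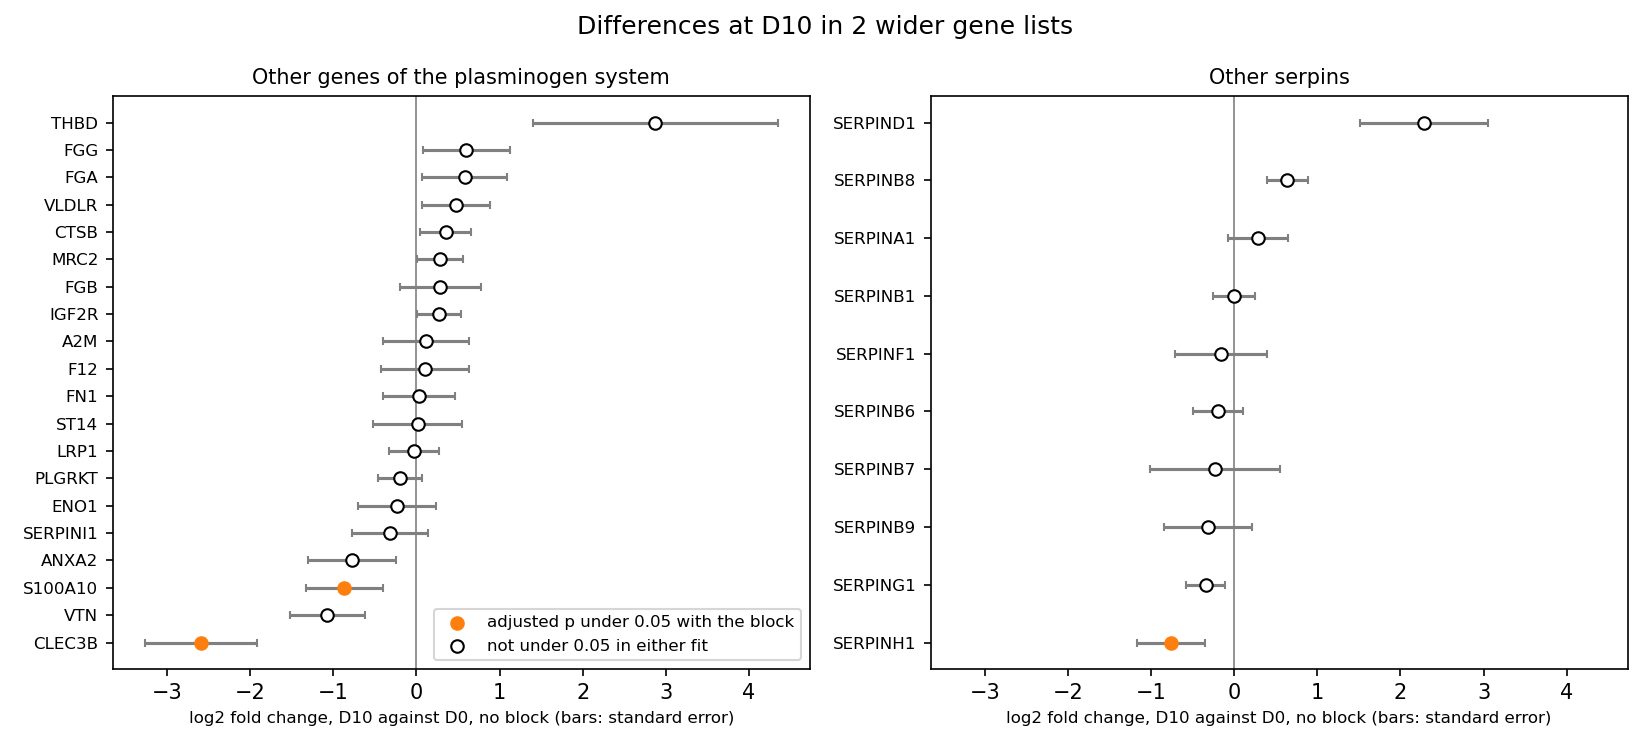
Log2 fold change at D10 against D0, without a block, of the 20 tested genes of the wider plasminogen list (left) and of the 10 tested further serpins (right), with bars of 1 standard error. Filled orange points had an adjusted p under 0.05 with the experiment as a block, and these are S100A10, CLEC3B and SERPINH1, all to the left of 0.

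Over the 8 libraries, with log2 CPM centred within each experiment, PLAU and PLAT followed each other with a Pearson r of 0.97. PLAUR had an r of 0.84 with PLAU, 0.87 with PLAT and 0.89 with SERPINB2. SERPINE2 had 0.19 with PLAU, 0.21 with PLAT, 0.50 with PLAUR and 0.67 with SERPINB2. The same measure gave, over all tested genes, MMP1 (r = 0.99), BDKRB1 (0.99) and KCNJ15 (0.99) as most like PLAT, and SLC6A15 (0.99), CD82 (0.99) and DAXX (0.98) as most like PLAU. MMP1, interstitial collagenase, went from 111.3 and 62.4 CPM at D0 to 3206 and 5725 at D10. For PLAUR the nearest were MEAF6, AL136164.4 and AL354719.2 (r from 0.97 to 0.98), for SERPINE2 FOXD2-AS1, SGCE and FOPNL (0.98 to 0.99), and for SERPINB2 STAMBPL1, WDR75 and FZD8 (0.98 to 0.99). A high r does not mean a change of like size. The log2 fold change at D10 was 5.68 for MMP1 and 3.98 for SLC6A15, but 0.44 for DAXX, 0.22 for MEAF6 and 0.08 for SGCE. The 8 points share 4 groups and 2 experiments, and these genes were picked as the highest of 13798, so the r values describe likeness only.

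Since AP-1 is a transcription factor with sites near many protease genes, the letters TGANTCA, which read the same on both strands, were searched in the 250 bases before each start site of the RefSeq promoter windows (GRCh38.p14). The table matched 4 of the 5 genes, PLAT not among them, with 6 windows. The letters occurred once in the window of PLAUR, 186 bases before the start, and once in that of SERPINB2, 102 bases before it, and in none of the 2 windows each of PLAU and SERPINE2. Of 35116 windows 6.57% held them. The 87 bases around each match are shown 5′ to 3′ with the match in capitals, to show that the matches differ at the free position, from chr19:43670309-43670395 on the minus strand and chr18:63887563-63887649 on the plus strand.
PLAUR: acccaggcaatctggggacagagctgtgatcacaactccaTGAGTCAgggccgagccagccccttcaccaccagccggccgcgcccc
SERPINB2: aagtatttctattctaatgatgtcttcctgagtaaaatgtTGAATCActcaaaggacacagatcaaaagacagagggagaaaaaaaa
A match in letters is not a site shown to be bound, and where the letters are missing, that holds only for these windows.

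Reads of some of these genes can be shared with neighbours. C10orf55, on the opposite strand, covers 31.1% of the exon bases of PLAU, and its own level was 3.77 and 2.77 CPM at D0 and 14.3 and 11.7 at D10. SERPINB10 covers 19.9% of the exon bases of SERPINB2 on the same strand. The strand setting of the counting is not given in the sources used here, so reads of such overlaps cannot be told apart.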

How the data were processed

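IMR90 fibroblasts were incubated with medium of IMR90 ER:RAS cells and poly(A) RNA of 2 independent experiments was sequenced as stranded libraries, giving 8 libraries in 4 groups. The submitters' processing notes name STAR 2.5, DESeq2 and GRCh38. The counter, annotation and strand setting are not given in the sources used here. The authors deposited raw counts per gene, with totals of 11708193 to 13395912 per library, in a table of 27696 genes. The 8 RPM columns in it were not used. One column header reads DO and was taken as D0 replicate 1.

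Genes were filtered with filterByExpr (13798 kept, all 5 members among them), scaled with TMM and fitted by group over all 8 libraries with edgeR 4.0.16 (glmQLFit and glmQLFTest, R 4.3.3). Adjustment was by Benjamini-Hochberg over all tested genes, with calls at 0.05. Ratios used log2 CPM with a prior count of 2 and exact two-sided permutation tests. Scripts were tested on simulated data. Intervals cover counting error only, and reads without molecular identifiers are not independent molecules.

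Replicate numbers pair the libraries, since they mark independent experiments, and deviations from group means correlated across genes with r from 0.418 to 0.722 in all 6 pairs of groups. The reported fits, DESeq2 and the permutation tests did not use this pairing, while the fits with the experiment as a block did. Positions and exon lengths are from GENCODE 29, which held 99.6% of the gene identifiers, and promoter sequences from RefSeq (GRCh38.p14).

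Alternatives were DESeq2 1.42.0, DESeq2's size factors, total counts, no filter on low counts, a minimum of 10 counts per library, only the compared groups, a replicate block, an adjusted p under 0.01, another prior count (0.5), and leaving out each library. The block with a library left out, principal transcript lengths and the PLAT to PLAU ratio were added after seeing the data. The members and lists were chosen with earlier results of these data known. Named were the members, the list genes called at D10 with or without the block, the 4 most abundant of a list with fewer than 4 such genes, and the 3 genes most like each member.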

Additional observations from a re-analysis of the deposited data

How the results depend on the processing

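At D10, 4 of the 5 genes were called with the replicate block, by DESeq2 and without a filter, and 0 at an adjusted p under 0.01, with at least 10 counts in every library or with only the compared groups. The count ran from 0 to 3 when a library was left out, and from 1 to 4 with the replicate block as well. At D7, 2 were called with the replicate block, by DESeq2 and without a filter, and 0 to 2 with the block and a library left out. At D4 it was 2 by DESeq2, and 0 to 3 with the block and a library left out. For D10 against D7 it was 1 by DESeq2 and without a filter, 0 to 1 with a library left out, and 0 to 4 with the block and a library left out. Along the day it was 4 with the block and by DESeq2, 1 to 3 with a library left out and 2 to 4 with the block too. In the wider list 2 were called with the block, 1 without a filter, and of the further serpins 1 with the block. The block changed no other call. SERPINB2 was not tested with at least 10 counts in every library, nor at D4 and D7 with only the compared groups.

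Directions held for PLAU, PLAT, PLAUR and SERPINE2 at D4, D7 and D10 under every alternative run. SERPINB2 at D7 reversed without the first D7 library (-0.33, with the replicate block -1.14), and ran from -0.33 to 1.25 with a library left out and from -1.14 to 3.00 with the block too. With the prior count of 2, the change in PLAU to SERPINB2 reversed in experiment 1 alone (0.42) and without the second D10 library (0.89). It had a range from -3.55 to 0.89 over the left-out libraries. Without a prior count it did not reverse in experiment 1, where PLAU rose 5.46-fold and SERPINB2 5.98-fold. PLAT to SERPINB2 reversed in experiment 1 alone (0.89), without the first D0 library (0.11) and without the second D10 library (1.30), with a range from -1.89 to 1.30. The reversal without the first D0 library (0.11) also needs the prior count. The log2 change of summed activators over inhibitors was 2.17 per kilobase of exon, 2.46 without division by length and 2.43 by principal transcripts. The cause of these moves was not tested. With 2 libraries a group and 3 to 19 SERPINB2 reads in 7 of 8 libraries, changes of that gene under several-fold could not be resolved.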
